A study of Vitis vinifera with 12 samples.

Results

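The nuclear-encoded chloroplast genes PSBP1, PSBP2, CHLH, NDHM and THI1-2, were followed through fruit peel and young leaf of 3 grape (Vitis vinifera) cultivars. The 5 genes were found by their symbols, and each had 1 row of its own among 25210 rows of the peel table and 25253 rows of the leaf table. They were chosen by their RPKM values in the 6 columns compared here, so their levels and differences are a description. The cultivars were Bangalore blue, Red globe and Dilkhush, and the series was built on their varying content of anthocyanin, the red to blue pigment of grape skin; messenger RNA was sequenced. Each cultivar and tissue had 2 libraries, 12 in all, but the deposited tables hold 1 RPKM column for each of the 6 cultivar and tissue groups. RPKM is scaled by transcript length and by the mapped reads of each column, so levels of different genes can be compared per length. No value has a replicate error, no difference was tested, and how far neighbours in any order of cultivars would differ beyond replicate spread is unknown.

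Chloroplasts capture light in 2 linked photosystems, and most of their proteins are encoded in the nucleus and imported. Grape berries are green before ripening, and at ripening their plastids lose chlorophyll while the skin of coloured cultivars gains anthocyanin. PsbP proteins sit on the lumen side of photosystem II and help it to split water. CHLH is the large subunit of magnesium chelatase, which commits the porphyrin pathway to chlorophyll. NDHM is a subunit of the chloroplast NADH dehydrogenase-like complex, which carries cyclic electron flow around photosystem I. THI1 proteins make the thiazole part of thiamine (vitamin B1) and are spent in a single reaction in yeast and Arabidopsis, so the protein has to be made continually.

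Depth is not known for any column. The median row lay between 2.63 and 3.06 in the peel columns and between 5.83 and 6.04 RPKM in the leaf columns, and 16.9% to 19.6% of rows were listed at 0 in peel against 10.6% to 12.5% in leaf. Transfer RNA rows took 13.9% to 33.6% of summed RPKM in peel, most in Red globe, and 11.6% to 13.3% in leaf. None of the 5 green-tissue marker symbols matched a row. Of 4 coloured-skin markers 3 were found (UFGT, GST4 and FAOMT), with a summed level of 2594 RPKM in Bangalore blue peel, 1601 in Red globe peel and 12.0 in Dilkhush peel, where FAOMT was listed at 0.

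The photosynthetic genes differed widely in how much of them was present in peel. PSBP1 was at 350.4 RPKM in Bangalore blue peel, 239 in Red globe peel and 483 in Dilkhush peel, against 2084, 494 and 1758 RPKM in the leaves of the same cultivars in that order. Each peel value of PSBP1 was below the leaf value of its cultivar, as were 59.0% to 62.6% of all rows with 10 RPKM or more in the higher column. The Red globe leaf stood far under the other 2 leaves and close to the Dilkhush peel, though the 2 tables were normalized separately. In peel PSBP1 nevertheless stayed among the most abundant rows, at percentile 98.7 to 99.3 of its column, from the 318th row in Red globe to the 177th in Dilkhush. In leaf it was the 25th row of the Bangalore blue column, the 142nd of Red globe and the 27th of Dilkhush.

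PSBP2, a further gene of the PsbP family, was far less abundant. Its level was 15.3 RPKM in Bangalore blue peel, 10.9 in Red globe peel and 22.4 in Dilkhush peel, against 74.7, 54.4 and 95.1 RPKM in the leaves. Each peel value was below the leaf value of its cultivar, again beside 59.0% to 62.6% of all rows. Both tissues had the same order, Dilkhush above Bangalore blue above Red globe. Its rank in the column was at percentile 67.3 to 79.1 in peel and 90.7 to 95.6 in leaf.

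CHLH was at 37.2 RPKM in Bangalore blue peel, 29.95 in Red globe peel and 48.2 in Dilkhush peel. Its leaf level in Bangalore blue was 597 RPKM, beside 138 in Red globe and 629 in Dilkhush. The peel value was below the leaf value in each cultivar, beside the same 59.0% to 62.6% of all rows, and Red globe was lowest in both tissues. The percentile of CHLH was 84.8 to 89.7 in peel and 96.7 to 99.6 in leaf, where it was the 97th row in Dilkhush and the 104th in Bangalore blue.

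NDHM was the gene of the set nearest to the middle of the peel transcriptome. It was at 2.77 RPKM in Bangalore blue peel, 2.93 in Red globe peel and 4.47 in Dilkhush peel, against 56.8, 13.6 and 32.01 RPKM in the leaves. The peel values stood at percentile 49.6 to 54.2 of their columns, which is close to the median row, and all were under the 10 RPKM floor used for calls. Leaf values stood at percentile 91.3 for Bangalore blue, 65.5 for Red globe and 83.3 for Dilkhush.

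**Figure D1:**
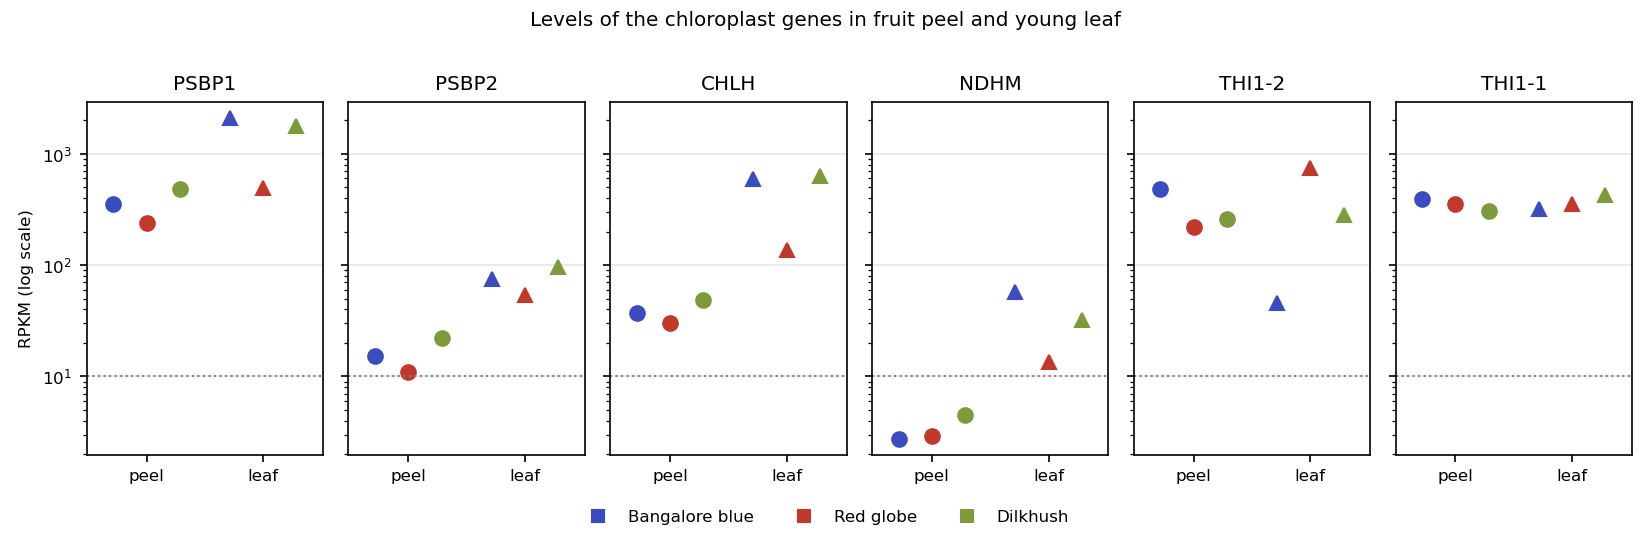
Each panel gives 1 gene, with RPKM on a log axis, the 3 peel columns left (circles) and the 3 leaf columns right (triangles), and colours for the cultivars. Each point is the authors' value for a cultivar, without error, and the dotted line marks 10 RPKM. PSBP1, PSBP2, CHLH and NDHM have no peel value above the leaf value of the same cultivar, while THI1-2 in leaf runs from 46.04 RPKM in Bangalore blue to 751 in Red globe and THI1-1 is nearly level.

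THI1-2 had another pattern. It was at 478 RPKM in Bangalore blue peel, 219 in Red globe peel and 259 in Dilkhush peel, against 46.04, 751 and 279 RPKM in the leaves. The highest and the lowest of its 6 values were both in leaf, and the peel values fell between them. In peel it ranked with PSBP1, at percentile 98.4 to 99.4, and it was the 145th row of the Bangalore blue column. Its leaf percentile was 88.7 for Bangalore blue, 99.7 for Red globe and 98.8 for Dilkhush. It was thus the one gene of the 5 whose rank in Bangalore blue was higher in peel than in leaf.

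**Figure D2:**
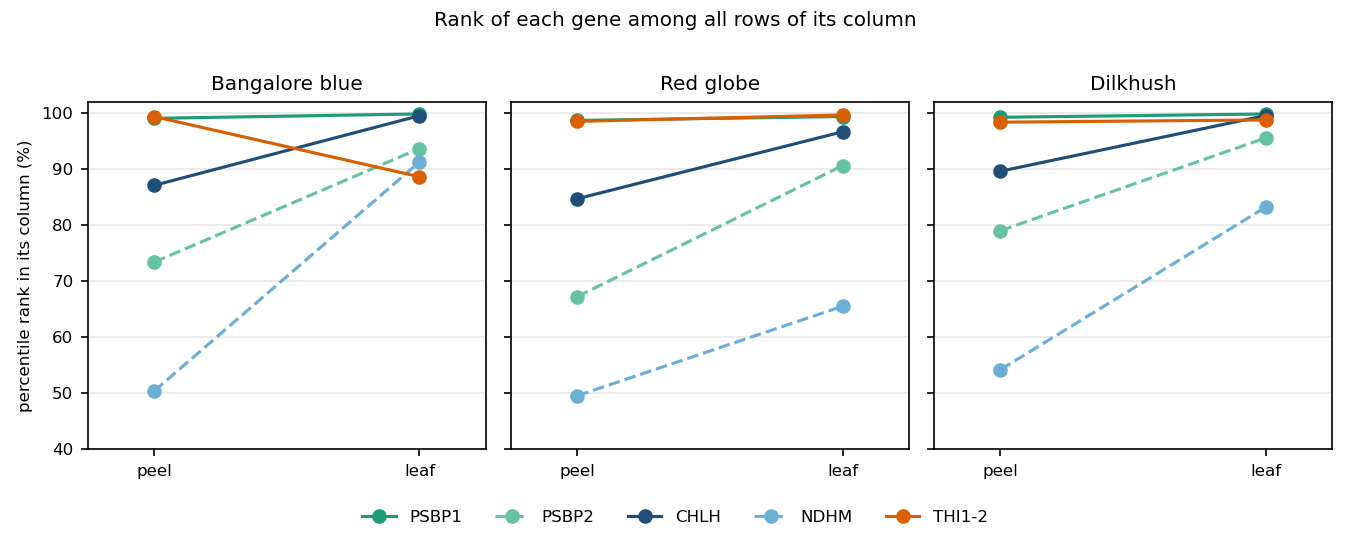
The percentile rank of each gene among all rows of its column (vertical axis, in percent, starting at 40) is joined between peel (left) and leaf (right) in each cultivar. PSBP1 stays above percentile 98 in every column, NDHM lies near the middle of the peel columns, and the THI1-2 line descends towards leaf in Bangalore blue, to 88.7.

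Peel and leaf columns of a cultivar were then set side by side over the 23590 names that occur once in each table. The tables were normalized separately, so these differences depend on the scale between them. A row was called where log2(RPKM + 1) differed by at least 2, which is 4-fold, with at least 10 RPKM in the higher column. On this scale differences of low genes are understated. Over all rows at that floor the median of peel minus leaf was -0.33 for Bangalore blue, -0.38 for Red globe and -0.27 for Dilkhush. In RNA from whole tissue, fewer green cells and less RNA per cell cannot be told apart.

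In Bangalore blue 4 of the 5 genes were called lower in peel than in leaf, where 15.5% of all rows were, and THI1-2 was called higher, as were 5.73%. The PSBP1 level in peel was 16.8% of that in leaf, with a log2 difference of -2.57, or -2.24 relative to the median row. PSBP2 was at 20.5% of its leaf level (-2.21), short of a call with quantile normalization (-1.98) or equal medians of rows above 0 (-1.89). CHLH was at 6.23% (-3.97) and NDHM at 4.87% (-3.94), the lowest shares of the 5 genes. THI1-2 was 10.4-fold higher in peel as a ratio of RPKM (log2 difference 3.35), and 97.6% of rows at the floor had a lower value.

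Red globe showed smaller distances for most of the genes. CHLH (-2.16) and PSBP2 (-2.22) were called lower in peel, 2 of the 5, against 16.2% of all rows. Both were short of the size for a call with quantile normalization, at -1.90 each, and with equal medians, at -1.73 for CHLH and -1.80 for PSBP2. The peel levels were 48.3% of the leaf level for PSBP1 (-1.05), 19.99% for PSBP2, 21.8% for CHLH and 21.6% for NDHM (-1.89, or -2.17 and called with a pseudocount of 0.1). THI1-2 was at 29.2% of its leaf level (-1.77) and was not called, in the opposite direction to Bangalore blue.

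In Dilkhush 3 of the 5 genes were called lower in peel, against 13.1% of all rows: CHLH at 7.66% of its leaf level (-3.68), NDHM at 14.0% (-2.59) and PSBP2 at 23.5% (-2.04, or -1.56 and not called with equal medians of rows above 0). PSBP1 was at 27.5% (-1.86) and was called only after quantile normalization (-2.28). THI1-2 was nearly even between the tissues at 92.6% (-0.11), and its sign turned, to 0.38, with columns scaled to equal medians of rows above 0.

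Side by side, PSBP2 kept nearly the same share of its leaf level in the peel of all 3 cultivars, 19.99% to 23.5%. The share for CHLH ran from 6.23% in Bangalore blue to 21.8% in Red globe, that for NDHM from 4.87% to 21.6%, and that for PSBP1 from 16.8% to 48.3%. For these 3 genes the largest share fell to Red globe, whose leaf values were the low ones, and peel values of a gene differed by 2.02-fold at most across cultivars. In peel PSBP1 thus stayed on at 239 RPKM or more, CHLH at 29.95 or more and PSBP2 at 10.9 or more, while no peel value of NDHM passed 4.47 RPKM.

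**Figure D3:**
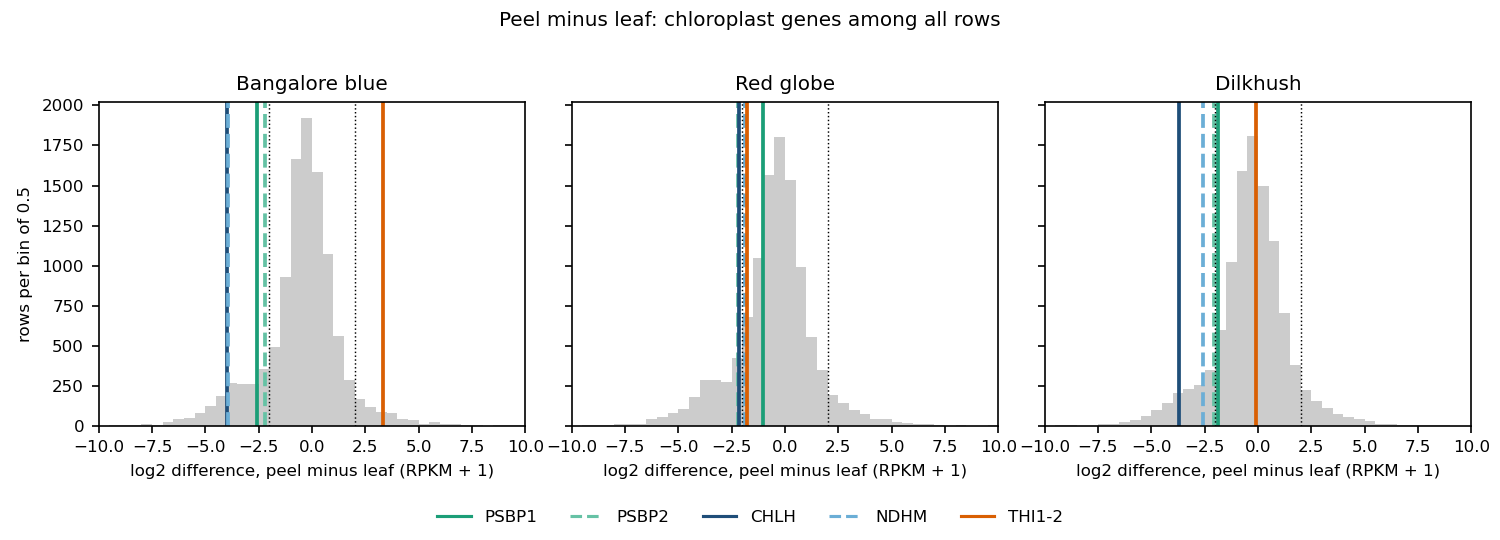
Grey bars count all rows with at least 10 RPKM in the higher tissue by their log2 difference of RPKM + 1, peel minus leaf, in bins of 0.5, with 1 panel per cultivar and dotted lines at the 4-fold size. Coloured lines mark the 5 genes. CHLH and NDHM lie farthest left in Bangalore blue, at -3.97 and -3.94, while THI1-2 is at 3.35 for Bangalore blue, -1.77 for Red globe and -0.11 for Dilkhush.

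The genes listed as markers of other cells also differed between the tissues. The 3 coloured-skin rows summed to 9.08 RPKM in Bangalore blue leaf, 194 in Red globe leaf and 70.3 in Dilkhush leaf. For flesh, HT6 and the GRIP ripening genes (10 rows in each table) summed to 13629 to 22574 RPKM in peel and 429.6 to 693 in leaf, with none at 0. HT6 alone was at 143 to 364 RPKM in peel and 32.8 to 39.0 in leaf. Most of the sum thus came from the GRIP ripening rows, so it is no measure of flesh here. Of 5 genes listed for seed and seed coat 3 were found (MYBPA1, LAR1 and LAR2), with 11.1 to 74.7 RPKM in peel and 137 to 226 in leaf and none at 0. Their sum was higher in leaf than in peel, so it is no measure of seed here. The part of such cells in the values of the chloroplast genes was not tested.

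Between cultivars the genes differed less in peel than the size needed for a call. None of the 5 genes was called in any of the 3 peel comparisons, against 6.09% of rows for Bangalore blue and Dilkhush, 5.76% for Red globe and Dilkhush and 5.25% for Bangalore blue and Red globe. NDHM could not be called there, being under the floor. PSBP1, PSBP2, CHLH and NDHM were all lower in Bangalore blue than in Dilkhush, by -0.36 (CHLH) to -0.54 (NDHM), beside a median of -0.09 over all rows. Of all rows at the floor, 56.0% were lower in Bangalore blue. Red globe was also below Dilkhush for these 4 genes, by -0.47 (NDHM) to -1.01 (PSBP1), beside a median of -0.12 and 58.2% of rows below. For Bangalore blue minus Red globe the differences were 0.55 for PSBP1, 0.46 for PSBP2, 0.30 for CHLH and -0.06 for NDHM, and the last turned to 0.09 with quantile normalization.

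THI1-2 had its highest peel value in Bangalore blue, whereas the other 4 genes had theirs in Dilkhush. For Bangalore blue the difference was 0.88 from Dilkhush and 1.12 from Red globe. Red globe and Dilkhush differed by -0.24, or by 0.10 with quantile normalization, so the order of those 2 columns depends on the scaling.

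In leaf the Red globe column stood apart for PSBP1, CHLH and NDHM. CHLH was called lower in Red globe than in Dilkhush (-2.18), 1 gene of 5, where 2.39% of rows were called lower. PSBP1 (-1.83), NDHM (-1.18) and PSBP2 (-0.80) were below Dilkhush without being called. Of all rows at the floor, 48.0% were below Dilkhush. Between Bangalore blue and Red globe, PSBP1 (2.07) and CHLH (2.11) were called higher in Bangalore blue, where 3.12% of rows were called higher. NDHM reached 1.99, just short of a call (2.05 and called with a pseudocount of 0.1, 2.01 with equal medians), and PSBP2 0.45. With totals equalized after leaving out transfer RNA, PSBP1 was at 1.94 and CHLH at 1.97, and neither was called; PSBP1 was at 1.89 with quantile normalization. PSBP1, CHLH and NDHM were among the 5.21% of rows at the floor that were at least 2-fold lower in Red globe than in both other leaves.

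None of the photosynthetic genes was called between Bangalore blue and Dilkhush leaves, where 457 of 11271 rows at the floor were called in either direction. The log2 difference, Bangalore blue minus Dilkhush, was 0.25 for PSBP1, -0.35 for PSBP2, -0.08 for CHLH and 0.81 for NDHM, beside a median of -0.03 over all rows. The NDHM difference was larger than that of 92.2% of rows at the floor. The value for CHLH turned to 0.02 with columns scaled to equal medians of rows above 0. THI1-2 was the single gene called, lower in Bangalore blue (-2.57), where 1.46% of rows were called lower.

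In the leaf comparisons with Red globe THI1-2 had the opposite sign to the photosynthetic genes, while for Bangalore blue minus Dilkhush it had the same sign as PSBP2 and CHLH. Its level was 16.3-fold higher in Red globe than in Bangalore blue, a log2 difference of -4.00 for Bangalore blue minus Red globe, and it was called lower there, as were 2.09% of rows. Of 11595 rows at the floor 37 had a lower value. Red globe was above Dilkhush by 1.42, which was not called. Of 10519 rows at the floor in both leaf comparisons with Red globe, 45.9% were highest in Red globe leaf, THI1-2 among them. A further 36.6% were lowest there, with PSBP1, PSBP2, CHLH and NDHM among them, so either direction was common. The coloured-skin rows had the same leaf order as THI1-2, with GST4 at 162 RPKM in Red globe, 53.2 in Dilkhush and 2.58 in Bangalore blue. The plastid genes PIFI and HGGT had that leaf order too. In peel the orders differed. The coloured-skin rows summed to 12.0 RPKM in Dilkhush and 1601 in Red globe, where THI1-2 was at 259 and 219. The part of coloured-skin cells in the THI1-2 values was not tested.

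**Figure D4:**
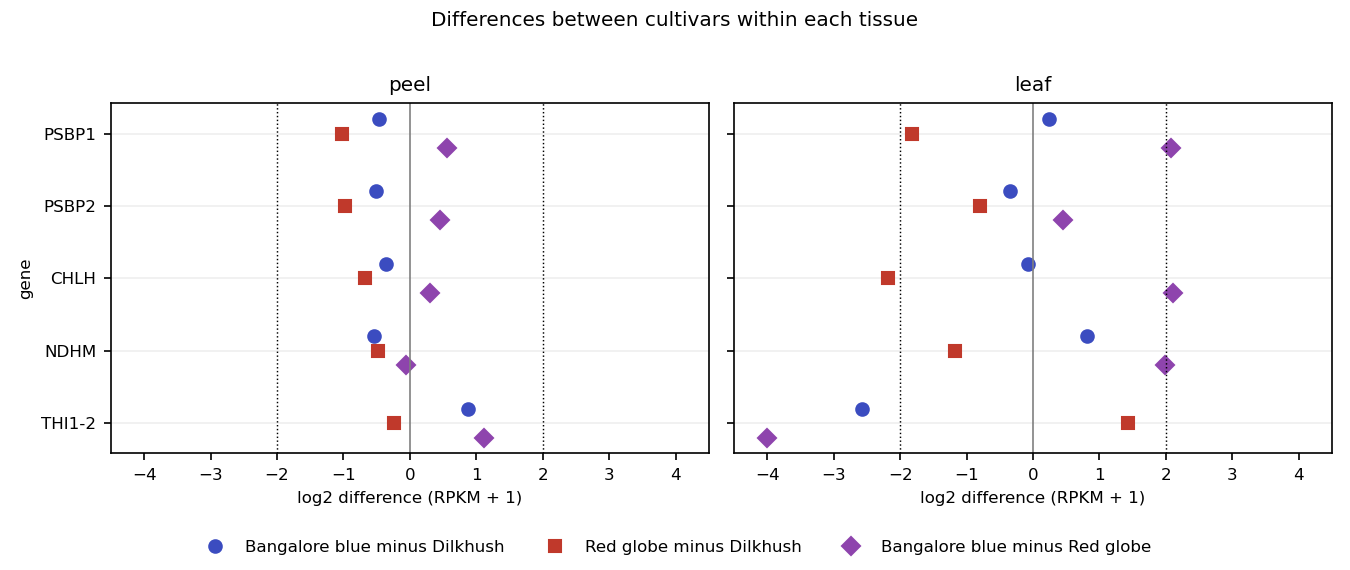
Log2 differences of RPKM + 1 between cultivars are shown for each gene in peel (left) and leaf (right), with a marker for each of the 3 comparisons and dotted lines at the 4-fold size. All peel points lie within 1.12 of 0, while in leaf CHLH, PSBP1 and THI1-2 pass the lines and THI1-2 lies opposite to the other genes in the comparisons with Red globe.

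THI1-1, a second thiamine thiazole synthase gene and the only other row with a symbol on the chloroplast gene list, was nearly level. It was at 395 RPKM in Bangalore blue peel, 350.5 in Red globe peel and 303 in Dilkhush peel, against 316, 352 and 427 RPKM in the leaves. Its highest and lowest values differed by 1.30-fold in peel and 1.35-fold in leaf. It was not called in any of the 9 comparisons, which holds for most rows in each. Between peels 5.25% to 6.09% of rows were called, between Bangalore blue and Red globe leaves 604 of 11595, and for peel minus leaf in Red globe 2463 of 10992. The ratio of THI1-2 to THI1-1 was 1.21 in Bangalore blue peel, 0.63 in Red globe peel and 0.85 in Dilkhush peel. The Bangalore blue leaf had a ratio of 0.15, the Red globe leaf 2.13 and the Dilkhush leaf 0.65. The sum of both genes was 362 RPKM in Bangalore blue leaf, 1103 in Red globe leaf and 706 in Dilkhush leaf, so it differed between leaves as well. Reads shared between close copies cannot be assigned with certainty, and how the counting split them is not given in the sources used here.

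Ratios of 2 genes within a column do not depend on the scale of the column. PSBP1 was 9.42 times CHLH in Bangalore blue peel, 7.97 times in Red globe peel and 10.03 times in Dilkhush peel, against 3.49, 3.59 and 2.80 times in the leaves. The 3 peel ratios thus lay above all leaf ratios, and the Red globe leaf did not stand apart. PSBP1 over PSBP2 was 22.8 in Bangalore blue peel, 22.0 in Red globe peel and 21.6 in Dilkhush peel, nearly the same in all 3. The Bangalore blue leaf had 27.9, the Red globe leaf 9.09 and the Dilkhush leaf 18.5. PSBP1 over NDHM was 81.3 to 127 in peel and 36.4 to 54.9 in leaf. CHLH over NDHM was 13.4 in Bangalore blue peel, 10.2 in Red globe peel and 10.8 in Dilkhush peel, against 10.5, 10.1 and 19.6 in the leaves, so these ranges overlapped.

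**Figure D5:**
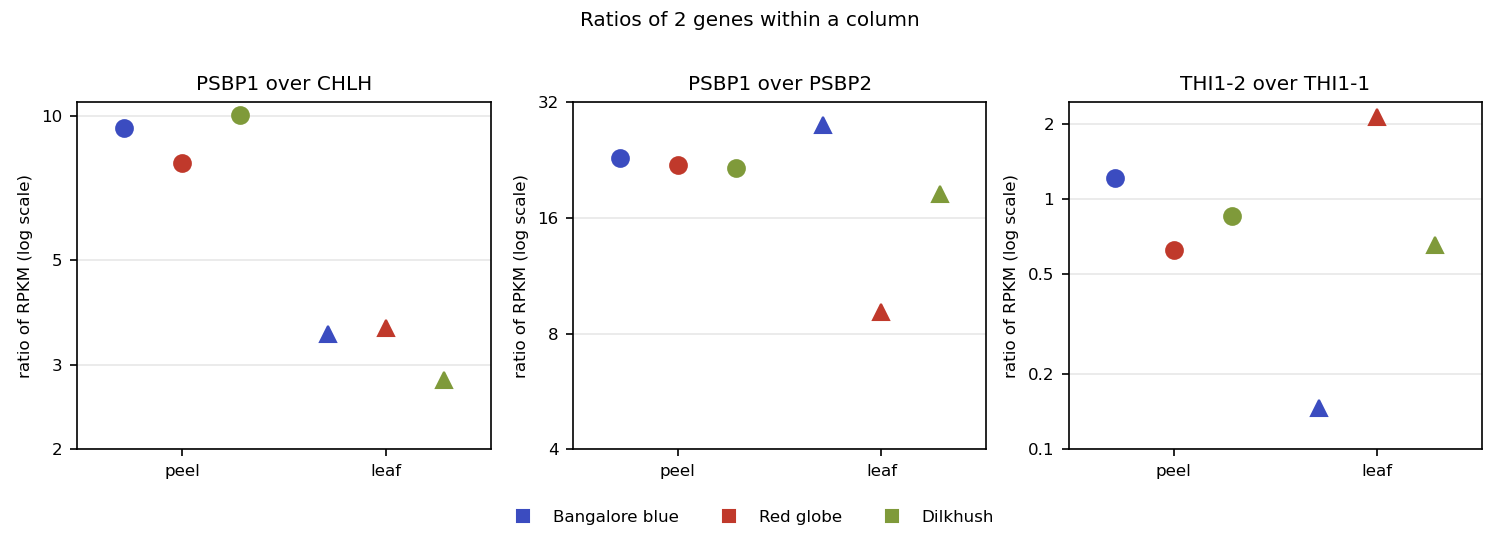
Ratios of the RPKM of 2 genes in the same column are given on log axes, with peel left (circles) and leaf right (triangles) and colours for the cultivars. PSBP1 over CHLH separates the tissues (7.97 to 10.03 in peel, 2.80 to 3.59 in leaf), PSBP1 over PSBP2 is near 22 in all peel columns and 9.09 in Red globe leaf, and THI1-2 over THI1-1 is lowest in Bangalore blue leaf at 0.15 and highest in Red globe leaf at 2.13.

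The rows most like each gene were sought among 201 others with a symbol and at least 10 RPKM somewhere, by the root mean square distance of log2(RPKM + 1) over the 6 columns after centring each row on its own mean. CHLH had NDHM as its nearest row, at a distance of 0.41, followed by LAR1, a tannin-branch reductase (0.54), and HP3 (0.60). NDHM lay nearest to CTR2 (0.32), then CHLH and ZEP, the zeaxanthin epoxidase of the carotenoid pathway (0.49). ZEP was the nearest to PSBP1 (0.34), with FLC (0.35) and CIPK19, whose row also carries a LOC number (0.47). PSBP2 had FLC (0.32), CIPK12 (0.47) and the phytochrome gene PHYE (0.47). None of the 201 rows came close to THI1-2, whose nearest were CBL07 (0.92), NFD2 (0.94) and the aquaporin TIP2;1 (1.02). Rows without a symbol, all but 275 in each table, were not searched. With each row centred within each table, which removes the difference between tissues, PSBP1 and CHLH were each other's nearest row (0.15). Rows outside the set came as close in that setting: HT7 was nearest to PSBP2 (0.14) and LAR1 to NDHM (0.15). Among the 5 genes themselves, over the 6 columns, the photosynthetic ones lay 0.41 to 0.76 apart, and THI1-2 lay 1.89 to 2.61 from each of them.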

How the data were processed

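RNA was taken from young leaves and fruit peels with a plant RNeasy kit and made into strand-keeping mRNA libraries, per the labels' protocols. The submitters' processing notes list TopHat2 2.1.1 and Cufflinks 2.2.1 with no role for either. The deposited values are the authors' RPKM, in 1 table for peel and 1 for leaf, per the file headers. Not given in the sources used here are the annotation, the genome build, the treatment of reads with several alignments and the making of a column from its 2 libraries. Columns were tied to groups by the initials of cultivar and tissue in the sample titles. Since RPKM is relative to all reads of a column, an abundant RNA lowers every other value.

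Because each group has 1 column, no test was possible and no p-value is given. Differences of log2(RPKM + 1) were computed for 9 comparisons, 6 between cultivars within a table and 3 between tissues, with a call at a size of 2 and 10 RPKM in the higher column. Percentile ranks were taken over all rows of a column. The calling step was run on simulated columns with planted changes larger than the call size and an assumed noise. That checks the code and not the calls in these data. Alternatives were a smaller pseudocount (0.1), calls with no floor, only rows with 5 RPKM in 2 columns, 4 scalings (the one on rows at 10 RPKM or more in all 6 columns was added after seeing the data) and leaving out rows of several names. The genes and lists were chosen with earlier results of these data known. Named genes were the 5 genes, other rows of the chloroplast gene list with a symbol, and the 3 nearest rows of each gene; further plastid genes were chosen by symbol after the files were seen. All 5 symbols matched a RefSeq gene table (Pinot Noir 40024), whose coordinates were not used because the tables name no build. Light-related promoter motifs and the protein sequences were not analysed here. Analyses used Python 3.11.15, pandas 2.3.3, numpy 2.4.6 and matplotlib 3.10.9.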

Additional observations from a re-analysis of the deposited data

Results flagged for a closer look

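For several of the genes a cultivar difference had opposite signs in peel and leaf, or a tissue difference had opposite signs in 2 cultivars. With 1 column per group none of these was tested. All values are log2 differences of RPKM + 1.

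THI1-2 was flagged most often, but its flags for peel minus leaf repeat its flags between cultivars by arithmetic. They are no further observations. Bangalore blue minus Red globe was 1.12 in peel and -4.00 in leaf, so the peel difference exceeded the leaf difference by 5.12; the same 5.12 separates peel minus leaf in Bangalore blue (3.35) from that in Red globe (-1.77). Bangalore blue minus Dilkhush was 0.88 in peel and -2.57 in leaf, 3.46 apart, which is also the distance between peel minus leaf in Bangalore blue and in Dilkhush (-0.11). Red globe minus Dilkhush was -0.24 in peel and 1.42 in leaf, -1.66 apart, and the peel sign depends on the scaling. NDHM for Bangalore blue minus Dilkhush was -0.54 in peel and 0.81 in leaf (-1.35 apart). NDHM for Bangalore blue minus Red globe was -0.06 and 1.99 (-2.05 apart), with all peel values under 5 RPKM. PSBP1 for Bangalore blue minus Dilkhush was -0.46 in peel and 0.25 in leaf (-0.71 apart).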

How the results depend on the processing

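Of 354 recomputed differences of single genes, 336 kept their direction and call, 10 lost the call, 4 gained it and 4 that were not called turned sign. No called difference turned sign in any of the 8 alternatives. The number of the 5 genes called between Bangalore blue and Red globe leaf was 3, and 1 with an equal total without transfer RNA. For peel minus leaf in Red globe it was 2, and 0 with quantile normalization and 0 with equal medians of rows above 0. Those scalings moved the median row of peel minus leaf to 0.05 and 0.06 for Bangalore blue (-0.33 as given), to 0.03 and 0.13 for Red globe (-0.38) and to 0.01 and 0.28 for Dilkhush (-0.27). The share of calls that were higher in peel, 27.0%, 27.6% and 34.1% in Bangalore blue, Red globe and Dilkhush, became 40.9%, 44.4% and 46.7% with quantile normalization and 37.1%, 42.9% and 52.2% with equal medians.

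Counts over all rows fell with the filter of 5 RPKM in 2 columns to 379 (from 582) for Bangalore blue minus Dilkhush peel, 350 (553) for Red globe minus Dilkhush peel, 268 (457) for Bangalore blue minus Dilkhush leaf and 399 (604) for Bangalore blue minus Red globe leaf. For peel minus leaf they were 793 (2289) for Bangalore blue, 857 (2463) for Red globe and 762 (2181) for Dilkhush, where higher calls became 38.7%, 37.1% and 54.9%; fewer rows are tested there, and NDHM drops out. Without a floor they were 878, 797 (from 497) and 715 for Bangalore blue minus Dilkhush peel, Bangalore blue minus Red globe peel and Bangalore blue minus Dilkhush leaf. With profiles centred within each table, 1 of the 15 nearest rows was shared with those given. No paired analysis was possible because the columns carry no replicate number, and no replicate could be left out. Depth is unknown, so low values such as those of NDHM in peel have no counting error.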

Other observations

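A further 5 plastid genes, chosen by symbol after the files were seen, did not share one pattern. ZEP, which makes violaxanthin in the carotenoid pathway, was at 25.1 RPKM in Bangalore blue peel, 17.2 in Red globe peel and 18.7 in Dilkhush peel, against 137, 40.6 and 122 RPKM in the leaves. As for CHLH and PSBP1, Red globe was the low leaf column, and 36.6% of all rows at the floor were lowest there. ZEP was already the nearest row to PSBP1 over these same columns, so this likeness is no separate observation. BCH1, a beta-carotene hydroxylase, was below 0.35 RPKM in every peel column and at 28.8 RPKM in Bangalore blue leaf, 1.49 in Red globe leaf and 5.94 in Dilkhush leaf. It was called higher in Bangalore blue than in Red globe leaf, 12.0-fold on the RPKM + 1 scale, where 3.12% of all rows were. It was also called higher in Bangalore blue than in Dilkhush leaf, 4.29-fold, as were 292 of 11271 rows at the floor.

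The other 3 did not have Bangalore blue and Dilkhush far above Red globe in leaf. PIFI, a stromal protein tied to chlororespiration in Arabidopsis, was highest in Red globe in both tissues, at 62.2 RPKM in peel and 109 in leaf, and was lowest at 24.8 in Dilkhush peel and 61.2 in Bangalore blue leaf. SODCP, a chloroplast superoxide dismutase, was at 149, 50.3 and 129 RPKM in peel of Bangalore blue, Red globe and Dilkhush, against 137, 85.6 and 180.2 in leaf, so its tissues overlapped. HGGT, of the tocotrienol branch of vitamin E synthesis, was at 26.2, 10.1 and 17.8 RPKM in the peels, with the cultivars ordered as before, and 34.6, 49.6 and 44.2 RPKM in the leaves. It was called lower in peel in Red globe (-2.19), where 16.2% of all rows were.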
